A study of Homo sapiens with 6 samples.

Results

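Genes of the cornified envelope, the cross-linked protein layer that keratinocytes assemble under the plasma membrane as they differentiate, were examined in MCF10A cells after PAX9 depletion. The set held 10 genes of the 26822 gene symbols in the deposited RNA-seq table. These were IVL (involucrin), the small proline-rich genes SPRR1A, SPRR1B, SPRR2A, SPRR2D and SPRR3, the transglutaminase genes TGM1 and TGM2, and CNFN and SBSN. Each was found by its exact symbol at 1 locus that carried no other symbol. The genes were selected on their FPKM in siPAX9 and siNT and the difference between them, so these differences are a description and were not tested. MCF10A cells are an immortal breast epithelial line, grown here in a medium with epidermal growth factor, hydrocortisone, cholera toxin, insulin and horse serum. The cells were transfected at 30 nM with non-targeting siRNAs (siNT) or with siRNAs against PAX9 (siPAX9), a paired box transcription factor, and were harvested after 72 hours. There were 3 samples per group, 6 in all, and the authors combined them into 1 value per group and locus. That value is an FPKM, a fragment number scaled to transcript length and to the mapped reads of the library, so levels of different genes can be set side by side.

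Involucrin is an early scaffold of the cornified envelope, and the small proline-rich proteins are cross-bridging precursors that are joined to it. Transglutaminases form the isopeptide bonds between glutamine and lysine side chains that hold these proteins together. IVL, the SPRR genes and many other late epidermal genes lie next to each other on chromosome 1, in the epidermal differentiation complex. In stratified epithelia most of these genes are silent in basal cells and are expressed as cells leave the basal layer.

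Because the table holds 1 pooled FPKM per group and no value per sample, no spread between samples, standard error or p-value could be computed, and an FPKM does not give the number of reads behind it. Changes are given as log2 of siPAX9 over siNT with 1 added to each FPKM, which understates the fold change of genes with a low level. A gene was counted as higher or lower when this value was at least 1 or at most -1, which is a difference of 2-fold. Among the 12965 named loci that reached an FPKM of 1 in either group, 4.94% were higher and 4.86% were lower by this count, and the median change was -0.05. Over all 27678 named loci, with or without that level, the shares were 2.31% and 2.28%. The targeted gene PAX9 stood at 2.80 FPKM with siNT and at 0.326 FPKM with siPAX9, at a locus on chromosome 14 (37126773 to 37642998, hg19) in which exons of SLC25A21 also lie. The breast and keratinocyte-type epithelial markers were present in both groups. The lowest FPKM of these 9 genes was 31.4 in siNT and 16.7 in siPAX9, and KRT5, a basal keratin, stood at 1558 with siNT and at 1807 with siPAX9. CDH1 (E-cadherin) was the marker past 2-fold with 1 added, with 45.3 and 124.4. Of the 9 markers, 4 had a lower FPKM in siPAX9, among them EPCAM with 34.3 and 16.7, a change of -0.997, just short of 2-fold, and KRT18 with 211.7 and 118.9.

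Of the 10 genes, 8 were at least 2-fold higher in siPAX9 and none was lower by that count, beside the 4.94% and 4.86% of the named loci that reached an FPKM of 1. Since these differences entered the choice of the genes, the count carries no weight of its own. The 8 genes were IVL, the 5 SPRR genes, TGM1 and SBSN. CNFN was higher by less than 2-fold on this scale, and TGM2 was the gene of the set with the lower FPKM in siPAX9. The median change of the 10 genes was 3.65, with a range from -0.18 to 6.33. Summed over the set, the FPKM was 17.9 in siNT and 573.7 in siPAX9, which is 32.0-fold. In RNA from whole cultures, a larger share of cells that express a gene and more of its mRNA per cell cannot be told apart.

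**Figure D1:**
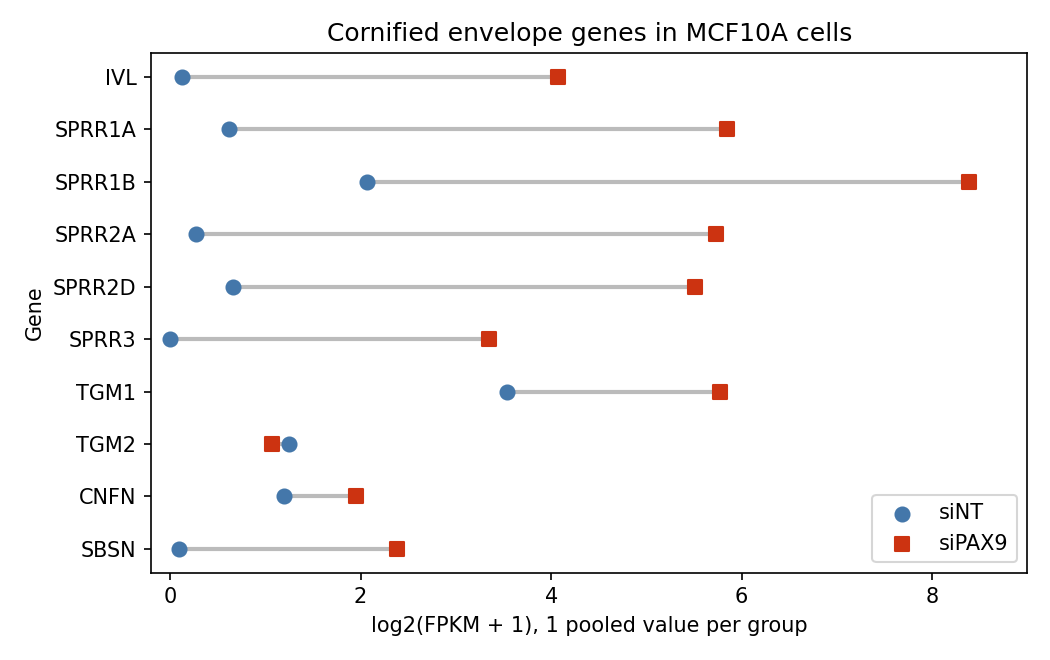
Level of each of the 10 genes in siNT (circles) and siPAX9 (squares) as log2(FPKM + 1), with 1 pooled value per group and a grey line joining them, so no error bars can be drawn. The squares lie right of the circles for 9 genes and left of the circle for TGM2 alone, and the 5 SPRR genes and IVL start near 0 except SPRR1B, which starts at an FPKM of 3.18.

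Involucrin mRNA was close to absent in siNT. IVL (chromosome 1, 152881039 to 152884362 on hg19, plus strand, a gene of 2 exons) stood at 0.0910 FPKM with siNT and at 15.8 FPKM with siPAX9, a ratio of 174. With 1 added to each FPKM the change was 3.95, which placed IVL as number 62 of the 12965 named loci when these were ordered from the largest increase down. Its level placed it as number 15344 of the 27678 named loci in siNT and as number 4460 in siPAX9.

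The SPRR genes encode short proteins of proline-rich repeats, and they fell into a pair (SPRR1A and SPRR1B), the SPRR2 group and SPRR3. SPRR1B (153003679 to 153005376, plus strand) stood at 3.18 FPKM with siNT and at 333.9 FPKM with siPAX9, a ratio of 105.1. It was the most abundant of the 10 mRNAs in siPAX9, where it stood as number 159 of the 27678 named loci, and it made up 58.2% of the summed FPKM of the set. SPRR1A (152956564 to 152958290, plus strand) stood at 0.532 FPKM with siNT and at 56.4 FPKM with siPAX9, a ratio of 106.1. The pair thus differed in level, with SPRR1B above SPRR1A in both groups, while their ratios of siPAX9 to siNT lay side by side. SPRR2A (153028596 to 153029988, minus strand) stood at 0.211 FPKM with siNT and at 52.1 FPKM with siPAX9, and this ratio of 246.9 was the highest of the 9 genes for which a ratio exists. SPRR2D (153012201 to 153013594, minus strand) stood at 0.578 FPKM with siNT and at 44.5 FPKM with siPAX9, a ratio of 77.0. SPRR3 (152974223 to 152976332, plus strand), which is known from the lining of the mouth and esophagus, was listed at 0 in siNT and at an FPKM of 9.17 in siPAX9, so no ratio is given. Ordered by the change with 1 added, SPRR1B came first of the 10 genes with 6.33, followed by SPRR2A with 5.45, SPRR1A with 5.23, SPRR2D with 4.85, IVL with 3.95 and SPRR3 with 3.35. SPRR1A, SPRR2A and SPRR2D, like IVL and SBSN, were below an FPKM of 1 in siNT, and a ratio over so low a level is imprecise.

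The DNA just before the start of these genes is shown because the 6 genes of the set on chromosome 1 were all higher in siPAX9 by the count above. RefSeq promoters (250 bases before to 50 after the start, GRCh38.p14) were matched for 7 of the 10 genes, namely IVL, SPRR1A, SPRR1B, SPRR2A, SPRR3, CNFN and SBSN. The 250 bases before the start are printed 5′ to 3′ on the strand of the gene for the 5 of them in the chromosome 1 complex, with exact matches to the AP-1 letters TGANTCA and to the TATA box letters TATAAA in capitals.
IVL (chr1:152908296-152908545, plus strand): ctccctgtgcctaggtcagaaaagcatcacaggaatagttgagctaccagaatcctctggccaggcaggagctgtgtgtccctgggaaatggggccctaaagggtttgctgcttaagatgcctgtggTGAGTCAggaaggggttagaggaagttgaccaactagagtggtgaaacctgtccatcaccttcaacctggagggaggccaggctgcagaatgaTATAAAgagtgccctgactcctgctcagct
SPRR1A (chr1:152983831-152984080, plus strand): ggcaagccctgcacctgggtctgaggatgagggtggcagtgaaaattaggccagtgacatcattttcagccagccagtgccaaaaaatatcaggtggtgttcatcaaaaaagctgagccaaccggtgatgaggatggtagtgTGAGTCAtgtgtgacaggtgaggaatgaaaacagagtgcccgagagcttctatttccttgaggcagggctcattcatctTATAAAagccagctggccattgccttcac
SPRR3 (chr1:153001499-153001748, plus strand): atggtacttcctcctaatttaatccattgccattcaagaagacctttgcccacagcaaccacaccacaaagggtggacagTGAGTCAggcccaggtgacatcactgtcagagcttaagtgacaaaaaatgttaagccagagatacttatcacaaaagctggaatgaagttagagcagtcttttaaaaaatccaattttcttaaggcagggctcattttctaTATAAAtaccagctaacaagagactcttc
SPRR1B (chr1:153030953-153031202, plus strand): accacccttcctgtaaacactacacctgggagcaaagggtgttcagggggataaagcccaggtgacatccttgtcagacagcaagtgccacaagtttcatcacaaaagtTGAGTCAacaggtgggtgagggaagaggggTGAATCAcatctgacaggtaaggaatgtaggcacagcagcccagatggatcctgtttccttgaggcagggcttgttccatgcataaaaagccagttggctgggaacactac
SPRR2A (chr1:153057513-153057762, minus strand): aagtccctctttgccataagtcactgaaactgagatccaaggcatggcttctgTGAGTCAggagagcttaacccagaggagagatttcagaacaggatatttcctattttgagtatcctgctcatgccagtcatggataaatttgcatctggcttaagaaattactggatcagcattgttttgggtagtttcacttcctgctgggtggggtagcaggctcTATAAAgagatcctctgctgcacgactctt

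TGANTCA, searched for the AP-1 family (JUN and FOS proteins) with any base at N, was found in 6 of the 7 promoters on either strand. Of the 35116 promoters in the RefSeq table, 7.71% held it. CNFN was the promoter without a match. The match began 123 bases before the start in IVL, 108 in SPRR1A, 170 in SPRR3 and 197 in SPRR2A. SPRR1B held matches at 141 and 111 bases before the start, and SBSN at 173 and 71. TATAAA began 29 or 30 bases before the start in IVL, SPRR1A, SPRR2A and SPRR3, and was in 11.5% of all promoters. SPRR1A and SPRR1B shared the run tttccttgaggcagggct, which began 56 and 57 bases before their starts and was the longest run that any pair of the 7 had in common. SPRR1A and SPRR3 shared aggcagggctcatt, 48 bases before the start of each.

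The remaining letters searched belong to other families of epithelial factors and to PAX9. CCACCC, a sequence of the KLF family, was in 6 of 7 promoters and in 34.3% of all promoters, and GGAAGT, a sequence of the ETS family, was in 3 of 7 and in 22.8% of all. AACCNGTT, which the grainyhead-like factors bind, was in 0 of 7 and in 1.73% of all. Of the sequences that the study scanned for PAX9 binding, GCGTGACCA was in 0 of 7 promoters and in 0.157% of all, and GCGGAACGG was in 0 of 7 and in 0.225% of all. The study scanned 1 kb and further sequences, which were not searched here. These matches describe letters in a short window and not bound sites, and none of the AP-1 matches overlapped a match to another of the letters searched.

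**Figure D2:**
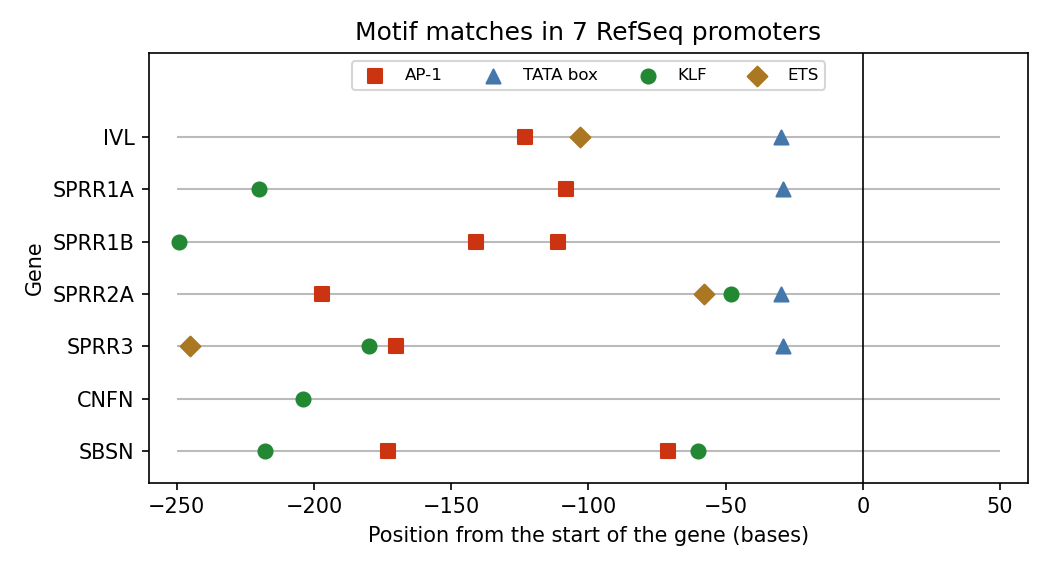
Places of the matches to the AP-1, TATA box, KLF and ETS letters in the 7 promoters, as the distance in bases of the first base of each match from the start of the gene, where each grey line is the window searched. AP-1 squares stand in every line except that of CNFN, and the TATA box triangles stand 29 or 30 bases before the start in 4 lines.

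The transglutaminase genes of the set differed from each other. TGM1 (chromosome 14, 24718320 to 24732416, minus strand, 15 exons), which encodes the membrane-bound enzyme of keratinocytes, stood at 10.6 FPKM with siNT and at 53.6 FPKM with siPAX9, a ratio of 5.05 and a change of 2.23. It was the most abundant of the 10 mRNAs in siNT, where it made up 59.2% of their summed FPKM, and it was the third in siPAX9 with 9.35%. TGM2 (chromosome 20, 36755789 to 36794980, minus strand, 13 exons), the widely expressed tissue transglutaminase, stood at 1.38 FPKM with siNT and at 1.10 FPKM with siPAX9, a ratio of 0.795 and a change of -0.18. Its locus also holds exon sequence of RPRD1B on the opposite strand, and 4.04% of its 76-base windows occurred in RPRD1B transcripts. Whether the libraries kept the strand is not given in the sources used here, so reads from the overlap cannot be assigned. None of the 7 other genes of the family (TGM3, TGM4, TGM5, TGM6, TGM7, F13A1 and EPB42) reached an FPKM of 1 in either group. TGM5, an epidermal transglutaminase, stood at 0.00583 FPKM with siNT and at 0.478 FPKM with siPAX9, and TGM3, which acts in the hair follicle and upper epidermis, was listed at 0 in siNT and at 0.0101 in siPAX9.

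CNFN and SBSN lie apart on chromosome 19. SBSN (36014269 to 36019253, minus strand), which encodes suprabasin, a secreted protein of suprabasal keratinocytes, stood at 0.0673 FPKM with siNT and at 4.23 FPKM with siPAX9, a ratio of 62.9 and a change of 2.29. CNFN (42891171 to 42894444, minus strand), which encodes cornifelin, a component of the envelope, stood at 1.28 FPKM with siNT and at 2.88 FPKM with siPAX9. This was a ratio of 2.24, but the change with 1 added was 0.77, so CNFN counts as higher by 2-fold when 0.1 or nothing is added to the FPKM. KRTDAP and DMKN lie beside SBSN. KRTDAP, a keratinocyte differentiation protein gene, was listed at 0 in siNT and at an FPKM of 0.724 in siPAX9, and DMKN (dermokine) stood at 32.9 FPKM with siNT and at 20.3 FPKM with siPAX9, a change of -0.67.

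The order of the levels changed between the groups. In siNT it ran TGM1, SPRR1B, TGM2, CNFN, SPRR2D, SPRR1A, SPRR2A, IVL, SBSN and SPRR3, and in siPAX9 it ran SPRR1B, SPRR1A, TGM1, SPRR2A, SPRR2D, IVL, SPRR3, SBSN, CNFN and TGM2. TGM1, SPRR1A, SPRR2A and SPRR2D lay between 44.5 and 56.4 FPKM in siPAX9. Without a value per sample, it cannot be said which neighbours in either order differ. The 6 genes in the chromosome 1 complex had changes from 3.35 to 6.33, and the 4 genes outside it had changes from -0.18 to 2.29. With nothing added, the log2 ratios were 6.27 to 7.95 for the 5 complex genes with a ratio. Outside the complex they were -0.33 to 5.97, the last being SBSN. Since the genes were selected on these differences, this comparison carries no weight of its own.

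Reads from closely related genes can be assigned to the wrong copy, and the SPRR2 genes are such a group. Every run of 76 bases, the length of the reads, was taken from the GENCODE transcripts of each gene and looked for in the transcripts of all other genes on both strands. For SPRR2A, 24.9% of the 602 windows also occurred in another gene, 23.1% in SPRR2B, 15.9% in SPRR2E and 12% in SPRR2D. For SPRR2D, 8.39% of the 1120 windows occurred elsewhere. IVL, SPRR1A, SPRR1B, SPRR3, TGM1, CNFN and SBSN shared 0 windows with any other gene. Matches with mismatched bases, which an aligner allows, were not counted. The FPKM of SPRR2A and SPRR2D are therefore uncertain as single genes. Summed over the 7 SPRR2 genes the FPKM was 1.08 in siNT and 123.8 in siPAX9, a ratio of 115.2.

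**Figure D3:**
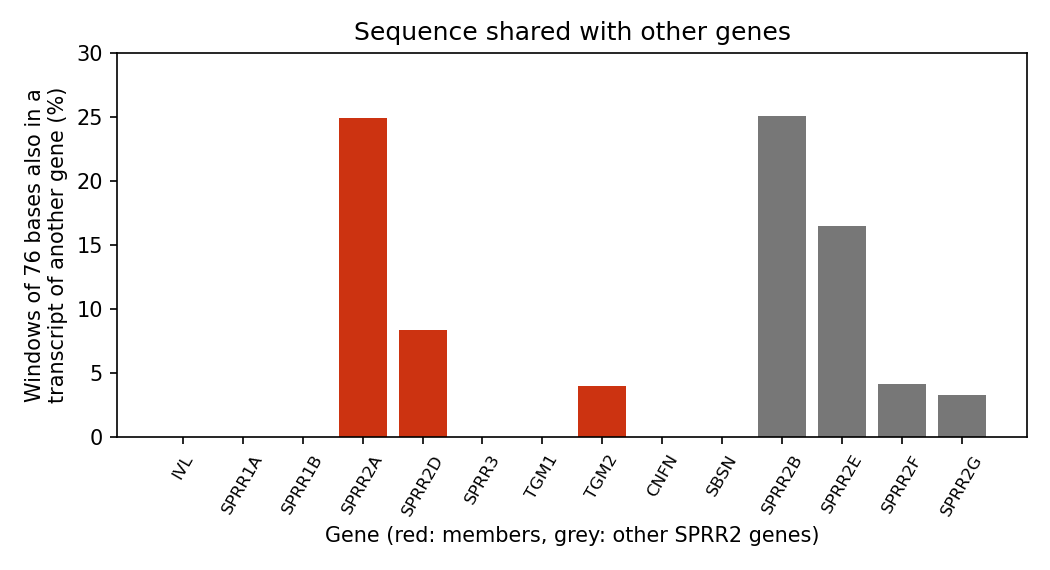
Share of the 76-base windows of each gene's transcripts that also occur in a transcript of another gene, in percent, with the 10 genes of the set in red and 4 other SPRR2 genes in grey. SPRR2A stands at 24.9%, SPRR2D at 8.39% and TGM2 at 4.04%, and the other 7 genes of the set at 0.

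In the epidermal differentiation complex, taken as all 69 named loci on chromosome 1 from S100A10 to S100A1 (151955386 to 153618819), 15 loci were at least 2-fold higher in siPAX9 and 0 were lower by that count. Over the 63 loci that are not genes of the set, 9 were higher, and their median change was 0.14. Over all named loci, also taken without a minimum FPKM, the share was 2.31%. With nothing added to the FPKM the 15 became 25 of the 45 loci with a ratio, beside 14% of all named loci with one. The stretch from IVL to SPRR2G is 242 kb long and holds 12 named loci, of which 12 had a higher FPKM in siPAX9 and 8 were higher by 2-fold, 6 of them genes of the set. Apart from the genes of the set, SPRR2E stood at 0.181 FPKM with siNT and at 18.6 FPKM with siPAX9, a ratio of 102.8, and SPRR2B had 0.0762 and 6.90, a ratio of 90.5. SPRR2G was listed at 0 in siNT and at 0.978 in siPAX9, just under the 2-fold count with a change of 0.98, and SPRR2F, SPRR4 and SPRR2C stayed under an FPKM of 1 in both groups. Over all SPRR genes the level in siPAX9 ran from 333.9 for SPRR1B down to 0.0783 for SPRR2C.

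The counts on either side of this stretch are given beside the 2.31% of all named loci that were higher. Of the 34 loci between S100A10 and IVL, where the filaggrin and late envelope genes lie, 2 were higher by 2-fold, a count from which nothing is read. These were FLG-AS1 and CRCT1 (cysteine-rich C-terminal protein), with changes of 1.58 and 1.51. FLG-AS1 is listed over the same interval as FLG and FLG2, and FLG lies on the opposite strand, so their reads cannot be told apart without strand. The 18 late cornified envelope (LCE) genes, which encode precursors of the outer epidermis, gave 0 that were higher or lower by 2-fold, and 7 of them were listed at 0 in both groups. Only 3 of the 18 reached an FPKM of 1, and with 1 added a gene below that level cannot pass 2-fold. LCE1C, the LCE gene with the highest FPKM, had 3.90 in siNT and 3.87 in siPAX9, while LCE1B had 1.25 and 3.03, a ratio of 2.42, and LCE3D had 0.136 and 0.969, a ratio of 7.13. LCE3A went the other way and had the change furthest from 0 of the LCE genes, -0.945, with 0.925 in siNT and a listed 0 in siPAX9. LOR, which encodes loricrin, the main protein of the epidermal envelope, was listed at 0 in siNT and at 0.0171 in siPAX9, and FLG (filaggrin) reached 0.130 in siPAX9. HRNR (hornerin) had 0.756 and 1.99, a ratio of 2.63. Of the 8 genes of loricrin, filaggrin and its relatives, 7 had a higher FPKM in siPAX9 and 0 were past 2-fold. Only 1 of the 8 reached an FPKM of 1, so the others could not pass 2-fold with 1 added. Of the 23 loci between SPRR2G and S100A1, 5 were higher, namely PGLYRP3 and PGLYRP4, which encode peptidoglycan recognition proteins, and S100A12, S100A7A and S100A7. S100A7A is listed over the same interval as S100A8, which had 5311 and 6830, so reads assigned to either are uncertain. S100A7 (psoriasin) stood at 168.4 FPKM with siNT and at 1666 FPKM with siPAX9, whereas S100A9, an abundant gene of the same family, had 7814 and 8605.

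**Figure D4:**
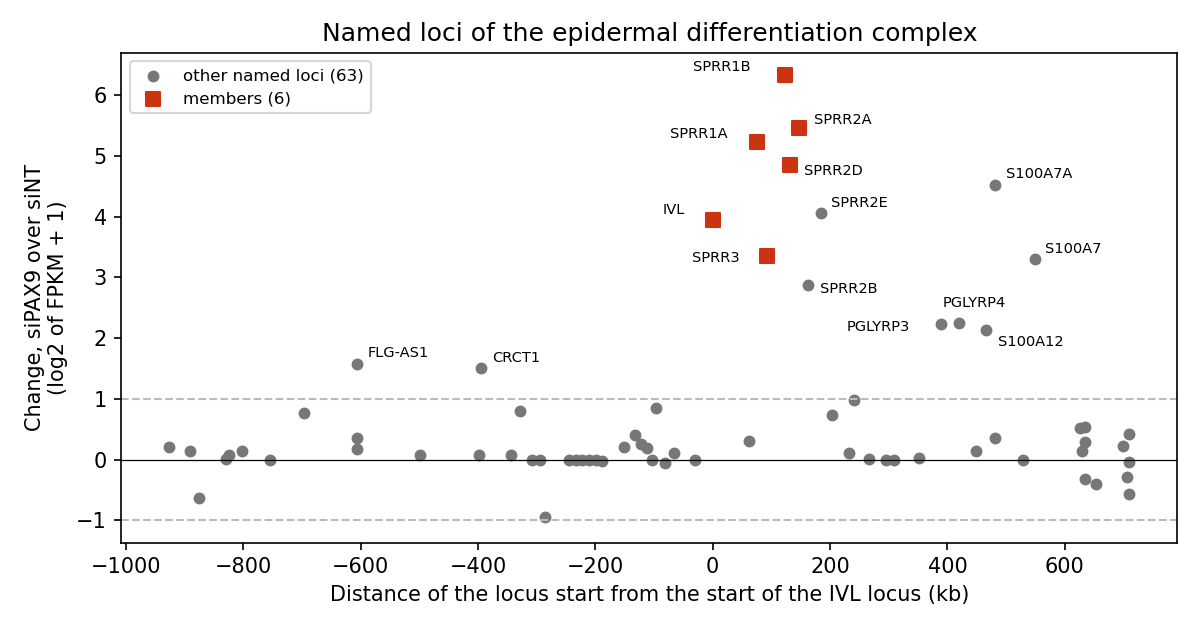
Change of each of the 69 named loci of the complex, as log2 of siPAX9 over siNT with 1 added to each FPKM, against the distance of its start from the start of IVL in kb, with the genes of the set as red squares and the other loci as grey points; dashed lines mark 2-fold. The 6 red squares stand between 3.35 and 6.33 within a short stretch, and the LCE genes to their left lie within the dashed lines.

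Lists of known precursors, linkers, proteases, inhibitors and lipid enzymes were written with earlier results of these data known. They were used to describe 63 other genes of the cornified envelope. Of these 63 genes, 20 reached an FPKM of 1 in either group, 9 were higher by 2-fold and 0 were lower, with a median change of 0.11. Over all named loci the shares were 2.31% and 2.28%. With nothing added to the FPKM the 9 became 24 of the 35 genes with a ratio, beside 14% higher and 8.2% lower of all named loci with one. With 0.1 added 23 genes were higher, beside 5.98% higher and 3.96% lower of all named loci. At a fold of 1.5 with 1 added, 17 genes were higher, beside 5.59% and 6.73%. Besides SPRR2B, SPRR2E and CRCT1, the higher genes were PI3, KLK7, KLK5, PPL, CSTA and ABCA12. PI3, which encodes elafin, a protease inhibitor that is itself cross-linked by transglutaminase, stood at 28.0 FPKM with siNT and at 1414 FPKM with siPAX9, a ratio of 50.4. The kallikrein-related peptidase genes KLK5 and KLK7, whose products cut the junctions between shedding corneocytes, had ratios of 70.0 and 64.8. PPL, which encodes periplakin, a linker between envelope and keratin filaments, had 21.1 and 70.1, and its partner EVPL (envoplakin) had 7.96 and 15.0, a change of 0.83. CSTA, which encodes the inhibitor cystatin A, had 149.5 and 390.8. Of 9 genes of envelope lipid synthesis and transport, ABCA12, which loads lipid into lamellar granules, was the gene past 2-fold, with 10.5 in siNT and 46.4 in siPAX9, while ALOXE3 had 1.70 and 1.55. CASP14, a caspase of cornifying cells, had 7.71 and 11.5.

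**Figure D5:**
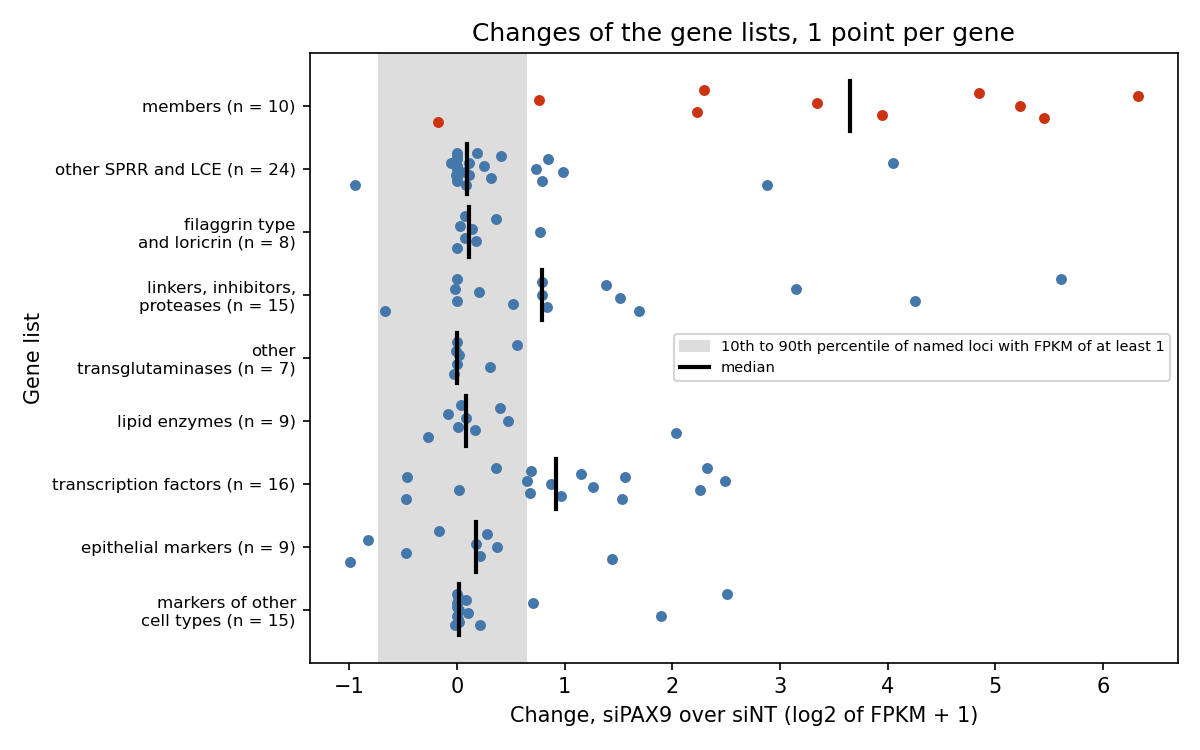
Change of each gene, as log2 of siPAX9 over siNT with 1 added to each FPKM, for the 10 genes of the set (red) and the lists set beside them (blue), with a black bar at each list's median and the range from the 10th to the 90th percentile of the named loci with an FPKM of at least 1 shaded (-0.73 to 0.64). On this scale the median of the set, whose genes were selected on this difference, is 3.65, and that of every other list is below 1. With nothing added, over genes with a ratio, the median log2 ratio is 6.27 for the set. From other SPRR and LCE genes to lipid enzymes, in the order shown, it is 2.06, 2.70, 1.525, 3.95 and 1.91. It is 1.46 for transcription factors, 0.175 for epithelial markers and 1.88 for markers of other cell types.

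The 5 single-symbol loci whose change lay nearest to the median of the set, over the 2 group values, were KRT16, S100P, C1orf116, CCDC80 and the microRNA locus MIR769. Their changes ran from 3.53 to 3.75. KRT16, a keratin of wounded and hyperproliferative epidermis, stood at 12.7 FPKM with siNT and at 174.6 FPKM with siPAX9, and S100P had 11.9 and 168.3. Likeness here rests on 1 pooled difference per locus.

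Markers of leukocytes, endothelium, fibroblasts and pigment cells were read beside these results. Of these 15 genes, 4 reached an FPKM of 1 in either group, and the median change was 0.01. By 2-fold, 2 were higher, CD14 (14.4 and 56.5) and DCN (5.85 and 37.9), and 0 were lower. Over all named loci the shares were 2.31% and 2.28%. The summed FPKM of the 15 genes was 24.4 in siNT and 100.5 in siPAX9. CD14 and DCN made up most of each sum. MLANA, a pigment cell gene, had 3.21 and 3.88, and KDR, an endothelial receptor gene, had 0.798 and 1.94. PTPRC, which marks leukocytes, had 0.0166 and 0.0922. Of the fibroblast markers, LUM had 0.0212 and 0.0782, and PDGFRB had 0.0781 and 0.0637, the 1 gene of the list with a lower FPKM in siPAX9. CD3E, COL3A1 and TYR were listed at 0 in both groups. The part of the cells these markers stand for in the differences above was not tested.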

How the data were processed

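RNA-seq of siNT and siPAX9 samples of MCF10A cells was used. Per the study's methods and the labels, the authors prepared poly(A)+ libraries, sequenced single-end reads on an Illumina HiSeq, and, in Partek Flow, used Bowtie 2 for alignment against UCSC hg19 and Cufflinks for quantification. The authors deposited 1 FPKM per group and locus for 41656 loci, 27678 of them with a symbol. How the libraries were scaled against each other is not given in the sources used here. The deposited fold changes, test statistics, p-values and q-values of the authors' own comparison were not used.

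Of several rows with a symbol, the row with the highest mean FPKM was kept. Genes named in the text are the 10 genes of the set, PAX9, and from each gene list those past 2-fold and up to 5 of the others with the highest mean FPKM. Also named are the loci nearest to the median of the set, the ends of the complex and genes that overlap a locus. SPRR2C, SPRR2F, SPRR4, LCE3A, LOR, S100A8, S100A9, EPCAM, TGM6, TGM7, CD3E, COL3A1 and TYR were named outside this rule. They were named for their role, place or value after their values were seen. Some genes of the lists that the rule takes in are not reported here. The members and lists were chosen with earlier results of these data known. Loci starts, which count from 0 in the file, were written as 1-based and compared with GENCODE gene models lifted to GRCh37, the same assembly as hg19. Promoters came from RefSeq on GRCh38.p14. The fold counts, the motif search and the window search were tested on simulated data. For the fold counts, the simulated control levels lay above those of most genes of the set in siNT. Low control levels, where the added 1 weighs most, were thus not tested. Python 3.11.15, numpy 2.4.6, pandas 2.3.3 and matplotlib 3.10.9 were used. Alternatives were no value or 0.1 added to the FPKM, a minimum FPKM, centring, summed rows, single-symbol loci, and folds of 4 and 1.5.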

Additional observations from a re-analysis of the deposited data

Results flagged for a closer look

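Within the stretch from IVL to SPRR2G, 2 loci without a gene symbol, which no comparison above used, had a higher FPKM in siPAX9 than in the siNT control. The locus from 152920795 to 152921731 on chromosome 1 (hg19) stood at 0.0674 FPKM with siNT and at 2.45 FPKM with siPAX9, a change of 1.69 with 1 added. In the GENCODE annotation of GRCh37 it overlaps exons of SPRR5 on the plus strand and of the noncoding gene LINC01527 on the minus strand, between which its reads cannot be assigned. The locus from 152908181 to 152909077 stood at 0.0196 FPKM with siNT and at 1.74 FPKM with siPAX9, a change of 1.43, and overlaps no annotated exon. Both differences rest on 1 pooled value per group and were not tested.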

How the results depend on the processing

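The count of 8 genes of the set higher by 2-fold was between 7 and 9 under every alternative run. The direction of all 59 recomputed changes of single genes of the set was as reported, but only centring could have turned one. A value added to both FPKM cannot turn a direction, and each gene had 1 row with 1 symbol and reached an FPKM of 1. The median change of the set was 6.27 with nothing added to the FPKM (9 genes, since SPRR3 has no ratio) and 6.21 with 0.1 added. It was 3.70 after centring, and 3.35 when the 7 SPRR2 genes were summed as 1 gene, an alternative chosen after seeing the data. Of the other cornified envelope genes, 9 were higher as reported, 24 (of 35 with a ratio) with nothing added, 23 with 0.1 added and 17 at a fold of 1.5. In the chromosome 1 complex the count of 15 became 25 (of 45 with a ratio) with nothing added and 24 with 0.1 added. Over all named loci the shares higher were 2.31% as reported, 14% with nothing added, 5.98% with 0.1 added and 5.59% at a fold of 1.5. With 1 added, a gene below an FPKM of 1 in both groups cannot pass 2-fold, and such genes were 12 of the 15 envelope genes and 9 of the 11 complex loci gained with nothing added, and 11 of 14 and 7 of 9 with 0.1 added. With 0.1 added, 1 gene of each of these lists was lower by 2-fold, and at a fold of 1.5, 2 were.

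No paired analysis was possible because the table holds 1 pooled value per group, and for the same reason no sample was left out. An FPKM does not give the number of reads behind it, so no counting error is given for the genes near 0 in siNT.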

Other observations

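A list of 16 transcription factors of epithelial differentiation was looked up beside the set. It was written with earlier results of these data known, so its count carries no weight of its own. Of the 16 factors, 7 were higher by 2-fold in siPAX9 and 0 were lower, with a median change of 0.92. Over all named loci, 2.31% were higher and 2.28% were lower. Of the 16, 13 reached an FPKM of 1, and among the named loci that did the shares were 4.94% and 4.86%. OVOL1, a zinc finger factor of epithelial differentiation, stood at 0.0497 FPKM with siNT and at 4.02 FPKM with siPAX9, and ZNF750, a factor of late epidermal differentiation, had 0.222 and 5.12. The ZNF750 locus of the table, on chromosome 17 from 80709940 to 81009686, also spans TBCD and B3GNTL1, whose reads may be included. GRHL3, a grainyhead-like factor known to regulate TGM1, had 2.57 in siNT and 19.0 in siPAX9, and GRHL1 had 3.45 and 12.1. The ETS factors ELF3 and EHF had ratios of 2.48 and 2.97. TP63, the factor of basal epithelial cells, had 35.4 in siNT and 25.3 in siPAX9, and CEBPB had 237 and 172. KLF4, which acts in suprabasal cells, had 8.39 and 16.2, a change of 0.87. None of these differences was tested, and their relation to the envelope genes was not tested.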
